A study of Homo sapiens with 6 samples.

Results

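Expression of 44 genes of DNA damage signalling and repair was compared between BT-549 cells transfected with an siRNA against NEAT1 and cells transfected with a control siRNA. The genes were taken by symbol from the table of 25545 genes and sorted by repair pathway, without use of their values. All 44 were found in the table. Of the 25545 genes, 18531 were above 0 in at least 1 library, and 10721 had a mean of at least 1 TPM (transcript abundance, reads scaled by transcript length and by library) over the 6 libraries and were tested. All 44 repair genes were among the 10721.

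BT-549 cells are a long-established human line from a triple-negative breast cancer (TNBC), and the labels name the cultures BT-549/tet-. The libraries fell into 2 groups of 3, CsiRNA (control siRNA) and NEAT1siRNA, with RNA taken 48 h after transfection, and no time course, second siRNA, second line or DNA-damaging agent was analysed here. NEAT1 is a nuclear long noncoding RNA that scaffolds paraspeckles. The authors made stranded mRNA libraries. Yet 4 short RNAs that are not polyadenylated mRNAs (RN7SK, RN7SL1, RN7SL2 and RPPH1) held 64.4% to 68.1% of the TPM of a library. How fully polyadenylated RNA was selected is therefore not known. The values are RNA levels in cultures for which the labels name no DNA damage, and say nothing of protein, phosphorylation or repair activity. In such bulk samples, fewer cells expressing a gene and less RNA per cell cannot be told apart. The labels name no batch and describe triplicate cultures without saying whether these were independent. The p-values therefore rest on the spread between these libraries, which the test pools in part over genes.

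Double-strand breaks are mended by end joining, in which the Ku heterodimer and DNA-PKcs hold the ends for ligation, or by homologous recombination, which copies the sister chromatid after the ends are resected. The kinases ATM and ATR sense breaks and stalled forks and signal through CHEK2 and CHEK1, and the Fanconi anaemia proteins unhook crosslinks between DNA strands. Many of these genes are expressed most in cells that replicate DNA, and TNBC is known for frequent defects in homologous recombination.

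Of the 44 repair genes, 4 were called lower with NEAT1siRNA and 1 was called higher, which is 11.4% of them. The lower genes were PRKDC, XRCC2, ATR and FANCA, and the higher gene was XRCC4. A call here means an adjusted p under 0.05 in limma on log2(TPM + 1), adjusted by the Benjamini-Hochberg method over all genes tested. The same rule called 14.0% of all 10721 genes, 8.98% lower and 4.99% higher, so the repair genes were called at a share near that of genes at large. Their median log2 fold change was -0.09, against -0.04 for all genes tested, and 34 of the 44 had a negative fold change, against 6507 of the 10721. The median of the repair genes was -0.05 without CsiRNA replicate 1, beside -0.01 for all genes, and -0.04 with each library centred on its median, beside 0.01 for all genes, with 28 of the 44 negative. With the GC and length trend removed it was also -0.04, with 26 negative. Of the called genes at large, 963 were lower and 535 higher on deposited TPM, while centring each library on its median gave 954 lower and 1158 higher. With quantile normalization the counts were 1109 lower and 1082 higher. The 5 repair genes called kept their calls and directions under both of these scalings.

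**Figure D1:**
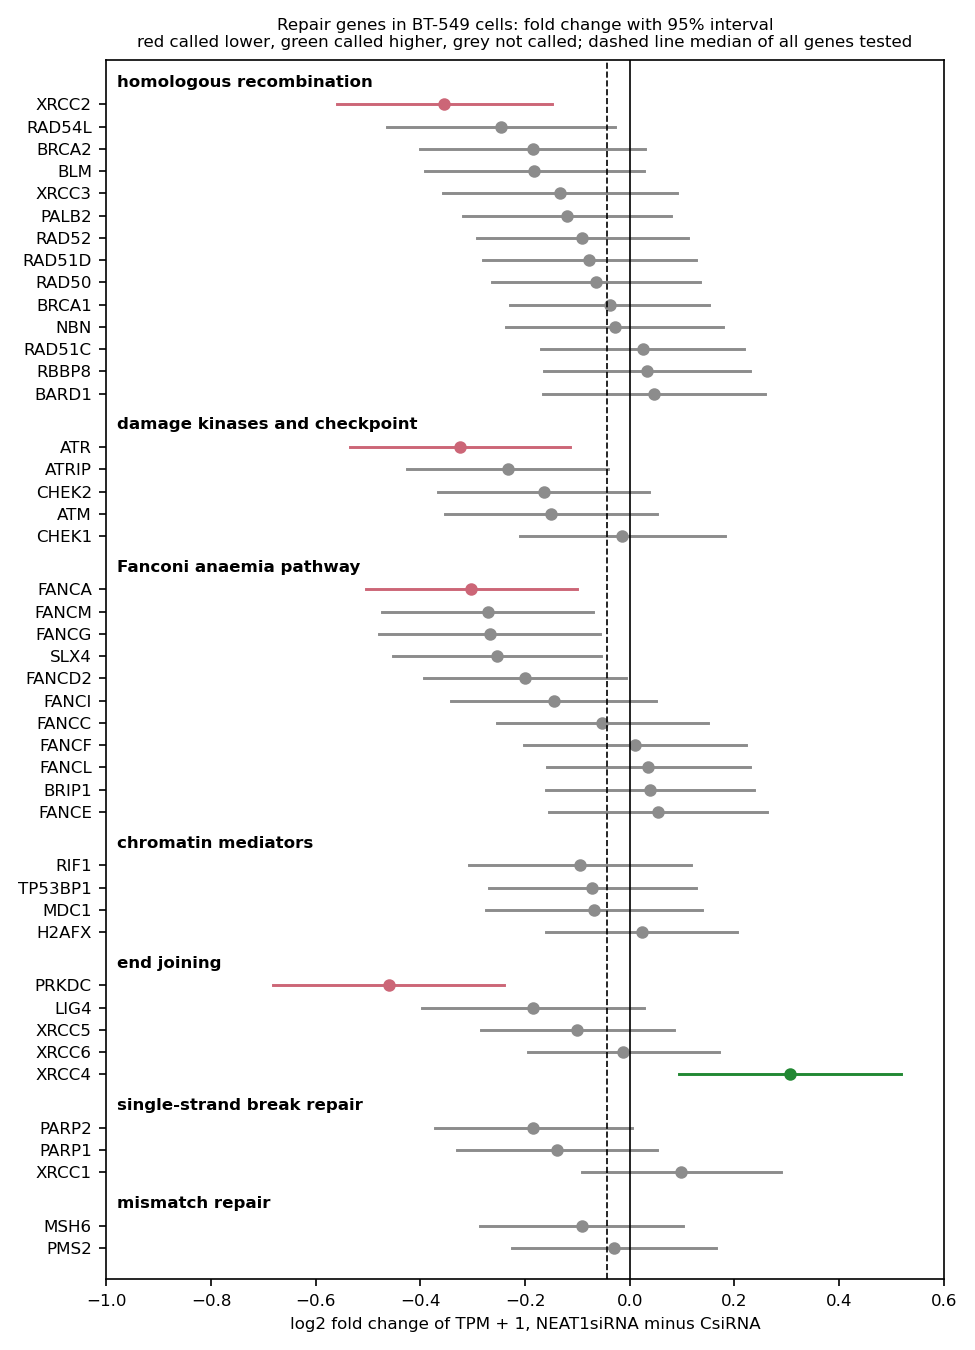
Log2 fold change of TPM + 1 (NEAT1siRNA minus CsiRNA, 3 libraries each) of the 44 repair genes with its 95% confidence interval from limma, grouped by pathway. Intervals of 39 genes are grey (not called), and the 5 called genes range from -0.46 for PRKDC to 0.31 for XRCC4.

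The calls depended on 2 libraries. Without CsiRNA replicate 1, none of the 44 repair genes was called in limma (0 lower and 0 higher), while 759 of all genes still were. At an unadjusted p under 0.05, 5 repair genes were then lower and 1 higher, against 10 and 1 with all libraries. Counts at an unadjusted p, here and below, come without the share of all genes past that cut. They are a description and cannot be set against a background. Without NEAT1siRNA replicate 3, 0 repair genes were called lower and 1 higher in limma, with 838 calls among all genes and 6 repair genes lower at an unadjusted p under 0.05. These are the libraries with the highest and the lowest median of all genes tested, at 0.07 above and 0.11 below the CsiRNA mean on the log2 scale, and the medians of the repair genes were 0.09 above and 0.17 below it. The sign of no called repair gene changed when any library was left out. Without a filter on TPM, with 18531 genes tested, 0 repair genes were called in either direction, with 10 lower and 1 higher at an unadjusted p under 0.05. ATR was also not called without CsiRNA replicate 2 (limma adjusted p = 0.0530), FANCA not without CsiRNA replicate 3, and XRCC4 not without any one of the controls or without NEAT1siRNA replicate 2.

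**Figure D2:**
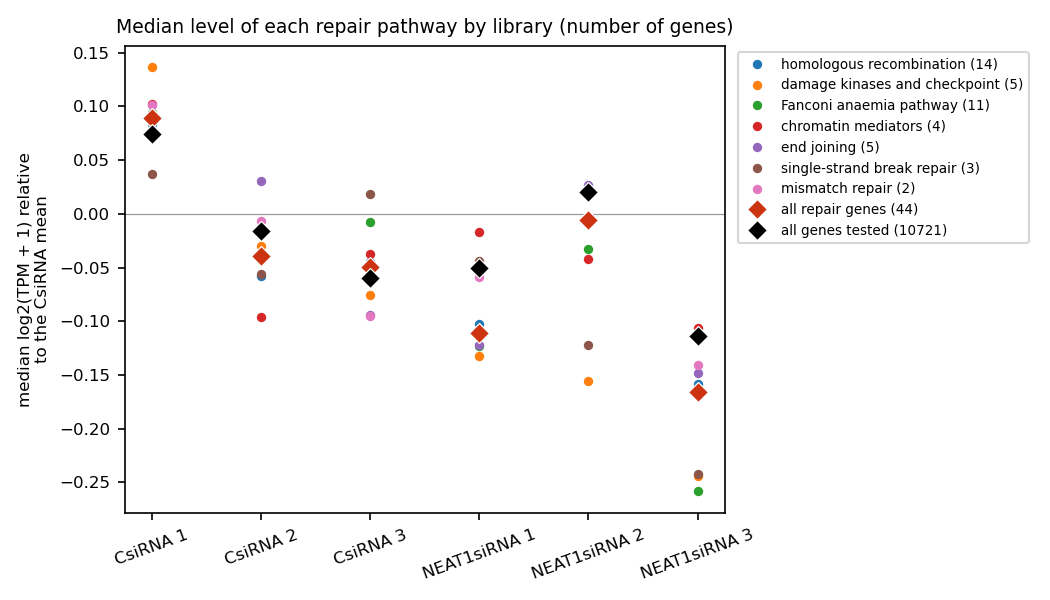
Median of log2(TPM + 1) relative to the CsiRNA mean in each library, for each repair pathway, all 44 repair genes and all 10721 genes tested (diamonds for the last pair). In NEAT1siRNA replicate 2 the median of the repair genes lay at -0.01, within the range of the CsiRNA libraries, and in replicate 3 at -0.17.

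The starts of 4 of the 5 called genes are shown: XRCC4, called higher, and XRCC2, ATR and FANCA, called lower. RefSeq promoters (GRCh38.p14, from 250 bases before to 50 bases after the start, 5′ to 3′) matched 40 of the 44 repair genes, and those of NBN, FANCI, PRKDC and XRCC5 were not used here. Capitals mark matches on either strand to an E2F site (TTTCCCGC or TTTGGCGC), a CCAAT box (CCAAT), a GC box (GGGCGG), an ETS site (CCGGAAG), an NRF1 half-site (GCATGCGC), an E-box (CACGTG) or a CHR element (TTTGAA), and a pair of GC boxes overlap by a base in XRCC2. The XRCC4 promoter is chr5:83077297-83077596 on the plus strand. Those of XRCC2, ATR and FANCA are chr7:152676092-152676391, chr3:142578684-142578983 and chr16:89816598-89816897, all on the minus strand.
XRCC4: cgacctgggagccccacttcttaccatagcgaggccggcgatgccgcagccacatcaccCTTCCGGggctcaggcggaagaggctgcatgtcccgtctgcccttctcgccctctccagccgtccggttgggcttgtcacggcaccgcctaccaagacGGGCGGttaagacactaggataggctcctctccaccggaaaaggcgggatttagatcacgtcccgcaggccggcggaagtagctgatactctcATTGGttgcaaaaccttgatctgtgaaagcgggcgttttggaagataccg
XRCC2: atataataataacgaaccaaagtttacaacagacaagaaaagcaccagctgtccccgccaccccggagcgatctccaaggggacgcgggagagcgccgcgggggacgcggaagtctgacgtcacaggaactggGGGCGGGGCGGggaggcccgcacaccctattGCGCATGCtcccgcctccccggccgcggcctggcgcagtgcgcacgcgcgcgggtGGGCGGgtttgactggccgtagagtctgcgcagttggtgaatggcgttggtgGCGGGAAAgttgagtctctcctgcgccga
ATR: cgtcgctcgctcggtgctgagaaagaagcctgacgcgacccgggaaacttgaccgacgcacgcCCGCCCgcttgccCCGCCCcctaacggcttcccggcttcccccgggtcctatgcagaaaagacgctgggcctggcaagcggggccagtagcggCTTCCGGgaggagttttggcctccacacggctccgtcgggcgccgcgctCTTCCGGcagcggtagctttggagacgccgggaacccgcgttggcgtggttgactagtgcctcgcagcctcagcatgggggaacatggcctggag
FANCA: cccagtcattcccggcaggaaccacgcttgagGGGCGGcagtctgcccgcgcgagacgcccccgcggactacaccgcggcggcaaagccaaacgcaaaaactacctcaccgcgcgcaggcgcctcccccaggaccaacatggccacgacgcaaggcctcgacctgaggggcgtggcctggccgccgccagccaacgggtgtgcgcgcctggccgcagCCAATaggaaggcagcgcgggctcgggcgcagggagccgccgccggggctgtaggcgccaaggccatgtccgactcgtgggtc

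The GC content of these stretches was 60.7% for XRCC4, 65.3% for XRCC2, 68.3% for ATR and 72.3% for FANCA, and each held at least 1 GC box. XRCC2 alone of the 4 held an E2F site, 21 bases after the start. Over the 40 promoters, 5 held an E2F site (XRCC2, FANCC, FANCD2, XRCC6 and MSH6), or 12.5%, against 2.27% of 35116 RefSeq promoters and 4.12% of the promoters of the genes tested. GC boxes were in 77.5% of the repair promoters and 72.2% of those of the genes tested (45.0% of all), CCAAT boxes in 52.5% and 37.3% (34.6% of all), and ETS sites in 30.0% and 21.6% (10.3% of all). NRF1 half-sites were in 10.0% and 6.07% (3.05% of all), CHR elements in 17.5% and 9.54% (15.2% of all), and E-boxes in 7.5% and 10.7% (7.26% of all). XRCC4 and ATR both held ETS sites and GC boxes, and whether any of these matches bears on RNA levels was not tested. A match is a match of letters and not evidence of binding.

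Among the damage kinases and their partners, all 5 genes had a negative fold change, with a median of -0.16, and 1 was called. Of all 10721 genes tested, 6507 had a negative fold change and 14.0% were called. CHEK1 stood at -0.01, and its sign changed in 8 of 18 other settings. ATR, the kinase that answers single-stranded DNA at stalled forks, measured 12.4, 11.1 and 10.2 TPM in the CsiRNA libraries and 8.66, 9.95 and 7.73 TPM with NEAT1siRNA. The groups did not overlap, although the highest NEAT1siRNA library came close to the lowest control. The log2 fold change was -0.32 (SE 0.10, limma adjusted p = 0.0337), a mean of 78.2% of CsiRNA. ATR lies at chr3:142449007-142578733 on the minus strand (GRCh38).

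ATRIP, which recruits ATR to RPA-coated DNA, measured 5.28 ± 0.28 TPM (SD, n = 3) with CsiRNA and 4.34 ± 0.21 TPM with NEAT1siRNA. Its groups did not overlap, but it was not called (log2 fold change -0.23, limma adjusted p = 0.0981). CHEK2, the effector kinase of ATM, also had groups that lay apart, though barely, at 7.83 ± 0.96 against 6.86 ± 0.36 TPM, with a log2 fold change of -0.16 (limma adjusted p = 0.292). ATM itself measured 6.84 ± 0.73 against 6.06 ± 0.53 TPM. CHEK1, the effector of ATR, stood at 13.2 ± 0.38 against 13.1 ± 1.41 TPM, with a 95% interval of the log2 fold change from -0.21 to 0.18. ATRIP shares its strand and span with TREX1, and CHEK1 with STT3A (94.7 TPM), so reads of these pairs could be split between them.

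Of the 14 homologous recombination genes, XRCC2 was the 1 gene called. It encodes a subunit of the BCDX2 complex, which acts in strand exchange. Its 3 control values were 7.62, 6.43 and 7.04 TPM, and those with NEAT1siRNA were 5.44, 5.83 and 4.60 TPM. Every NEAT1siRNA library was below every control, with a log2 fold change of -0.35 (SE 0.10, limma adjusted p = 0.0184) and a mean of 75.2% of CsiRNA. XRCC2 lies at chr7:152644776-152676193 on the minus strand (GRCh38) and had 399 recovered reads per library on average. The other members of that complex listed here, RAD51C and RAD51D, had log2 fold changes of 0.02 and -0.08, and neither was called.

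The remaining recombination genes were not called, and their groups overlapped. RAD54L, a motor protein that remodels recombination filaments, came nearest, at 13.9 ± 1.81 TPM with CsiRNA and 11.6 ± 1.52 TPM with NEAT1siRNA (log2 fold change -0.25, limma adjusted p = 0.126). BRCA2, a mediator of strand exchange, measured 8.61 ± 1.09 against 7.46 ± 0.98 TPM, and the BLM helicase 5.62 ± 0.52 against 4.85 ± 0.66 TPM. PALB2, the bridge between BRCA1 and BRCA2, had a log2 fold change of -0.12, XRCC3 of -0.13 and RAD52, a strand-annealing protein, of -0.09. The values of BRCA1 were 9.98 ± 0.47 against 9.69 ± 0.53 TPM, and its partner BARD1 had a log2 fold change of 0.05 with a 95% interval from -0.17 to 0.26. The resection factors RBBP8 (CtIP), RAD50 and NBN lay at 0.03, -0.06 and -0.03 on the log2 fold change scale, with intervals between -0.26 and 0.23. RAD51D had the fewest recovered reads of the 44 genes, 96 per library on average.

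In the Fanconi anaemia pathway, 1 of 11 genes was called and the median log2 fold change was -0.15. FANCA, a subunit of the core complex that ubiquitinates FANCD2 and FANCI, measured 6.25, 5.29 and 6.05 TPM in the controls and 5.04, 4.49 and 4.16 TPM with NEAT1siRNA. The groups did not overlap, and the log2 fold change was -0.30 (SE 0.10, limma adjusted p = 0.0395), a mean of 77.9% of CsiRNA. FANCA lies at chr16:89726683-89816977 on the minus strand (GRCh38) and is overlapped on the other strand by ZNF276.

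FANCM, the translocase that anchors the core complex, SLX4, the scaffold of the unhooking nucleases, and FANCG, a further core subunit, lay just outside the threshold. FANCM measured 4.77 ± 0.35 TPM with CsiRNA and 3.79 ± 0.44 TPM with NEAT1siRNA (log2 fold change -0.27, limma adjusted p = 0.0661). SLX4 measured 4.21 ± 0.31 and 3.37 ± 0.29 TPM (log2 fold change -0.25, limma adjusted p = 0.0817). The corresponding values of FANCG were 13.8 ± 1.62 and 11.3 ± 1.28 TPM (log2 fold change -0.27, limma adjusted p = 0.0834), and its groups overlapped while those of FANCM and SLX4 did not.

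FANCD2 and FANCI form the heterodimer that the core complex modifies. FANCD2 measured 20.3, 18.4 and 20.3 TPM with CsiRNA and 18.0, 17.5 and 15.5 TPM with NEAT1siRNA, groups that did not overlap, but it was not called (log2 fold change -0.20, limma adjusted p = 0.162). FANCI had a log2 fold change of -0.15. The other 5 genes of the pathway were FANCC at -0.05, the adaptor FANCE at 0.05, FANCF at 0.01, the ubiquitin ligase FANCL at 0.04 and the BRCA1-bound helicase BRIP1 at 0.04, with 95% intervals between -0.25 and 0.26.

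End joining was the pathway with calls in both directions, 1 lower and 1 higher of 5 genes. PRKDC, which encodes DNA-PKcs, the kinase that Ku recruits to broken ends, measured 145, 104 and 113 TPM in the CsiRNA libraries. With NEAT1siRNA it measured 95.8, 87.9 and 77.1 TPM. Replicate 1 stood above the other controls, and every NEAT1siRNA value was under every control value. The log2 fold change was -0.46 (SE 0.11, 95% interval -0.68 to -0.24, limma adjusted p = 0.00471), a mean of 72.0% of CsiRNA. PRKDC was the most deeply read repair gene, with 31889 recovered reads per library on average, and the only one of the 44 with an adjusted p under 0.01. Without CsiRNA replicate 1 its log2 fold change was -0.32 (limma adjusted p = 0.0834).

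XRCC4, the scaffold that stabilises DNA ligase IV, moved the other way. Its control values of 7.11, 6.97 and 6.77 TPM lay close together. With NEAT1siRNA it measured 8.25, 10.6 and 7.81 TPM, all above the controls, with replicate 2 the highest. The log2 fold change was 0.31 (SE 0.10, limma adjusted p = 0.0479), a mean of 128% of CsiRNA. Without NEAT1siRNA replicate 2 the log2 fold change was 0.18 and the call was lost (limma adjusted p = 0.213). XRCC4 lies at chr5:83077498-83353787 on the plus strand (GRCh38), with 330 recovered reads per library on average. It is overlapped on the other strand by TMEM167A, which had a mean of 62.0 TPM.

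LIG4, the ligase that XRCC4 binds, measured 11.0 ± 0.73 TPM with CsiRNA and 9.64 ± 1.49 TPM with NEAT1siRNA (log2 fold change -0.18, limma adjusted p = 0.253). XRCC5 (Ku80) and XRCC6 (Ku70), at 92.8 ± 7.60 and 136 ± 10.8 TPM the most abundant repair mRNAs per length besides PRKDC, had log2 fold changes of -0.10 and -0.01. Neither was called, and the 95% interval for XRCC6 ran from -0.19 to 0.17.

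**Figure D3:**
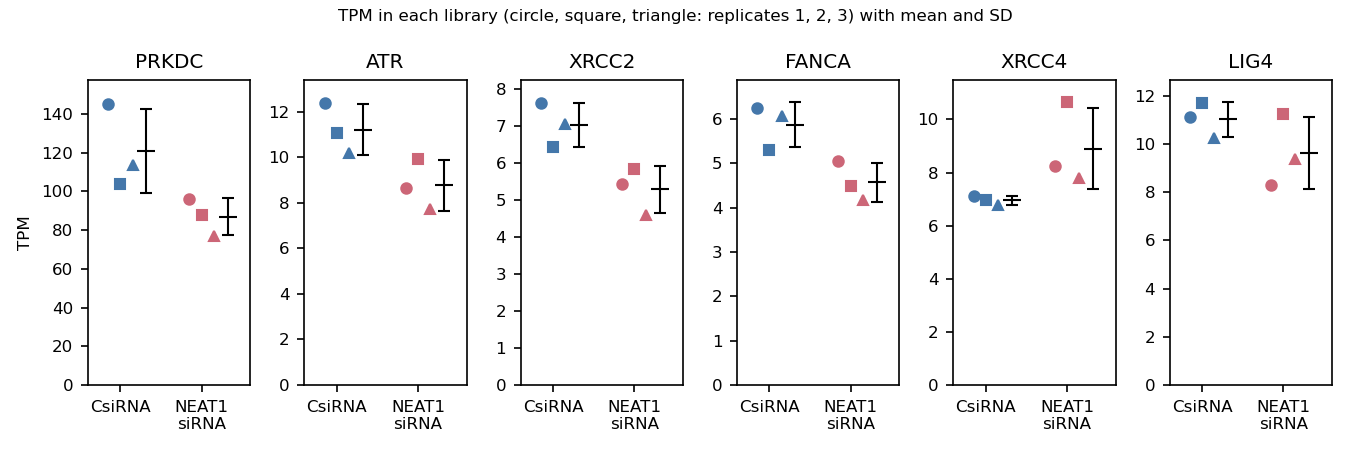
TPM (vertical axis from 0) of the 5 called repair genes and LIG4 in each library, with group means and SD (n = 3). The NEAT1siRNA libraries lie below all controls for PRKDC, ATR, XRCC2 and FANCA and above them for XRCC4 (7.81 to 10.6 against 6.77 to 7.11 TPM), while the groups overlap for LIG4.

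None of the 4 chromatin mediators was called in limma, and none had an unadjusted p under 0.05 or was called by voom on recovered reads. They are read at chromatin around a break, where H2AFX encodes the histone that ATM phosphorylates. RIF1, a partner of TP53BP1 that restrains resection, had the smallest p, with 16.5, 13.8 and 14.1 TPM in the controls and 13.3, 15.9 and 12.2 TPM with NEAT1siRNA. The groups overlapped, with a log2 fold change of -0.09 (SE 0.10, limma adjusted p = 0.607). TP53BP1 and MDC1 had log2 fold changes of -0.07 each and H2AFX of 0.02, with 40.3 ± 1.30 against 41.0 ± 2.12 TPM. The TPM of MDC1 imply a length 7.98 times that of its annotated transcript, so its level of 2.12 ± 0.28 TPM with CsiRNA cannot be set beside those of other genes. Implied lengths were shorter than annotated for RAD51D (0.24 times), RAD51C (0.50), XRCC2 (0.61), ATRIP (0.65) and RIF1 (0.71). The levels of these genes are likewise uncertain beside those of others.

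The 3 single-strand break repair genes and the 2 mismatch repair genes held no call as reported or by voom, and 0 of them had an unadjusted p under 0.05. XRCC1 was called higher in 1 of the other fits, that with the replicate block and the GC and length trend removed (limma adjusted p = 0.0485). PARP2, a sensor of strand breaks that makes poly(ADP-ribose), measured 19.5, 18.2 and 19.2 TPM with CsiRNA and 17.02, 17.3 and 15.4 TPM with NEAT1siRNA. Its groups did not overlap, but the log2 fold change of -0.18 (SE 0.09, limma adjusted p = 0.194) missed the threshold. PARP1, the major enzyme of this kind, stood at 47.7 ± 3.65 against 43.2 ± 3.03 TPM, and XRCC1, the scaffold of single-strand break repair, at 9.09 ± 0.53 against 9.80 ± 0.43 TPM. MSH6, a mismatch-recognition protein, measured 23.8, 22.6 and 20.4 TPM in the controls and 20.2, 22.4 and 19.8 TPM with NEAT1siRNA. These groups overlapped, with a log2 fold change of -0.09 (SE 0.09, limma adjusted p = 0.579). PMS2, an endonuclease of mismatch repair, had a log2 fold change of -0.03, and its reads are uncertain because the near-identical copies PMS2CL and PMS2P1 were listed at means of 6.03 and 6.19 TPM.

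Counted by ranges instead of tests, 11 of the 44 repair genes had groups that did not overlap, 10 lower and 1 higher. Among all genes tested the groups lay apart for 30.3%, lower for 19.3% and higher for 11.0%. The 10 lower genes were the 4 called ones with ATRIP, CHEK2, FANCD2, FANCM, SLX4 and PARP2. The 44 transcripts had a median GC content of 43.9% and a median length of 4584 bases, against 47.3% and 3347 bases for the genes tested, and across the 44 genes log2 fold change and GC content had a Spearman correlation of -0.07, given as a description since genes are not independent. GC-dependent deviations differed between libraries, and their Spearman correlation with GC content over genes reached 0.68 for NEAT1siRNA replicate 1 and -0.73 for replicate 2. Once a trend on GC content and length was removed, 11 repair genes were called lower (ATRIP, BLM, BRCA2, FANCG, FANCM, LIG4 and SLX4 besides the 4) and XRCC4 higher. That fit called 33.3% of all genes, against 27.3% of the repair genes.

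Ratios of TPM between partner genes within a library do not depend on how the library was scaled. The pairs were chosen with results known, so the ratios are given without a test. XRCC4 to LIG4 was 0.639, 0.595 and 0.660 in the CsiRNA libraries and 0.995, 0.947 and 0.832 with NEAT1siRNA. This ratio was higher in every NEAT1siRNA library, by 0.55 on the log2 scale. PRKDC to XRCC6 was 1.002, 0.743 and 0.914 with CsiRNA and 0.736, 0.612 and 0.589 with NEAT1siRNA, lower in each of the latter although the nearest values almost met. PRKDC to XRCC5 overlapped between the groups. ATR to CHEK1 averaged 0.851 ± 0.064 with CsiRNA and 0.670 ± 0.022 with NEAT1siRNA, and ATR to ATM 1.64 ± 0.07 and 1.45 ± 0.06, both without overlap, whereas ATR to ATRIP overlapped. XRCC2 to RAD51C averaged 0.700 ± 0.080 and 0.515 ± 0.048, again without overlap. Pairs with no gene called as reported could lie apart too. XRCC5 to XRCC6 averaged 0.681 ± 0.004 with CsiRNA and 0.640 ± 0.011 with NEAT1siRNA. PARP1 to XRCC1 averaged 5.27 ± 0.57 and 4.41 ± 0.23. How often ratios of other gene pairs lie apart was not worked out, so a lack of overlap does not mark the called genes. FANCA to FANCG overlapped, as did FANCD2 to FANCI, BRCA1 to BARD1, BRCA2 to PALB2 and RAD50 to NBN.

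**Figure D4:**
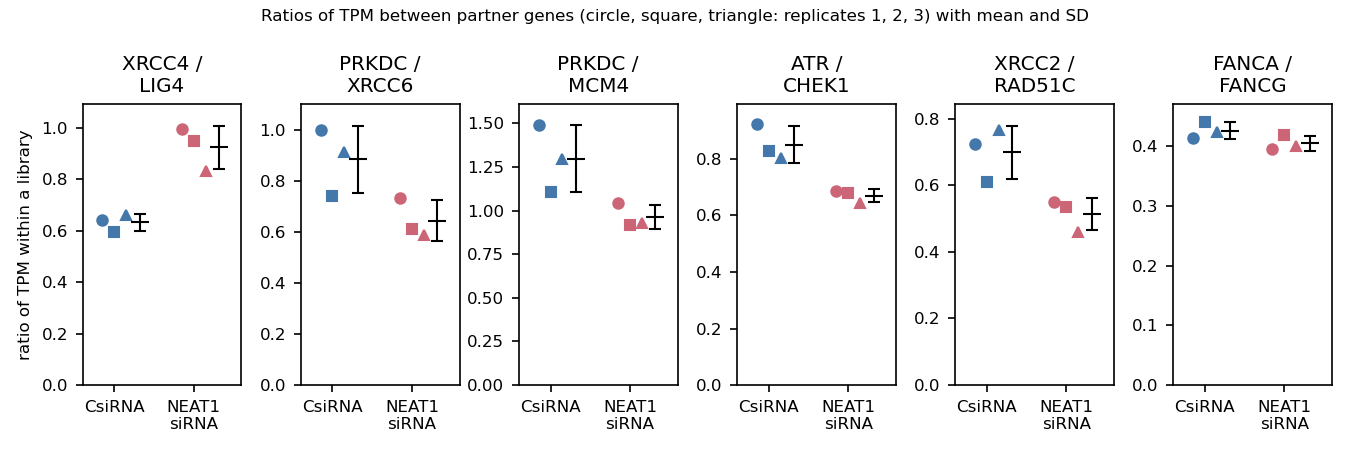
Ratio of TPM of a repair gene to that of a partner or neighbour gene in each library (vertical axes from 0), with group means and SD (n = 3). XRCC4 to LIG4 lies between 0.595 and 0.660 with CsiRNA and between 0.832 and 0.995 with NEAT1siRNA, and FANCA to FANCG overlaps.

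Several repair genes start next to another gene on the opposite strand, and 22 such neighbours started within 1000 bases. PRKDC and MCM4, which encodes a subunit of the replicative helicase, start 7 bases apart in the annotation. MCM4 measured 97.6, 94.0 and 87.5 TPM with CsiRNA and 91.8, 95.8 and 82.9 TPM with NEAT1siRNA, a log2 fold change of -0.05 (SE 0.09, limma adjusted p = 0.793). The PRKDC to MCM4 ratio was 1.49, 1.10 and 1.30 in the controls and 1.04, 0.918 and 0.930 with NEAT1siRNA. The groups of this ratio did not overlap. XRCC4 and TMEM167A start 365 bases apart, and TMEM167A had a log2 fold change of 0.16 (limma adjusted p = 0.337), while the ratio of XRCC4 to it overlapped between the groups. LIG4 and ABHD13 start 24 bases apart and had log2 fold changes of -0.18 and -0.17. Of the neighbours tested, ERC1 beside RAD52 was the 1 called gene, at -0.36 (limma adjusted p = 0.0133).

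A further 171 genes were listed by function with results known, and 155 of them were tested. They cover the same pathways, nucleotide excision, translesion and direct reversal repair, and p53 targets, which are not repair genes as such. Of the 155, 3 were called higher and 14 lower, or 11.0%, beside 14.0% of all genes, and the median log2 fold change was -0.07. The 16 p53 targets tested held 5 of these calls (31.25%), so the share in the repair lists alone was below 11.0%. In recombination, MUS81, a structure-selective nuclease, went from 8.69 ± 0.50 to 6.90 ± 0.41 TPM (log2 fold change -0.30), while RMI2 of the BLM dissolvasome rose from 5.88 ± 0.82 to 7.39 ± 0.34 TPM, with an adjusted p in limma that rounds to the threshold. FAAP100, a partner of FANCL in the core complex, fell from 2.54 ± 0.28 to 1.66 ± 0.21 TPM. Of 23 checkpoint genes, 4 were called lower, led by CDC25A, the phosphatase that CHEK1 marks for destruction, at 10.9 ± 0.98 against 7.94 ± 0.52 TPM, with MDM4 at a log2 fold change of -0.32 and TELO2, a cochaperone of ATM and ATR, at -0.32.

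TRRAP, a kinase-dead relative of ATM in histone acetyltransferase complexes, was the 1 of 15 chromatin response genes called, at 8.71 ± 1.72 against 6.12 ± 0.75 TPM. In nucleotide excision repair 2 of 21 genes were called, the helicase ERCC2 at -0.40 and CCNH at -0.37. Both encode parts of TFIIH, but the other TFIIH genes tested were not called. Those were ERCC3 (-0.18), GTF2H4 (-0.14), GTF2H1 (-0.10), GTF2H3 (-0.09), GTF2H5 (-0.08), MNAT1 (-0.02) and CDK7 (0.14). ALKBH2, a DNA dealkylase, was the 1 of 14 translesion and direct reversal genes called, at -0.28. None of 20 base excision genes and none of 5 further mismatch repair genes was called in limma. At an unadjusted p under 0.05, 3 base excision genes were lower and 2 higher, with 1 called higher by voom, and 0 of the mismatch repair genes passed either.

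Among 16 tested genes of a list of p53 targets, which respond to DNA damage through arrest or death pathways, 3 were called lower and 2 higher. That is 31.25% of them, against 14.0% of all genes tested, in a short list written with results known. TNFRSF10B, which encodes the death receptor DR5, had the largest change of all 155, at 19.9, 19.1 and 17.7 TPM with CsiRNA and 9.48, 9.68 and 8.96 TPM with NEAT1siRNA. The groups lay far apart, with a log2 fold change of -0.94 (SE 0.09, limma adjusted p = 9.42e-08). GADD45A, a stress-response gene, fell from 12.1 ± 1.47 to 8.23 ± 0.60 TPM, while CCNG1 rose from 53.6 ± 4.95 to 74.1 ± 14.9 TPM. AEN was also called lower and RRM2B higher. CDKN1A, which encodes p21, was not called at 2.76 ± 0.40 against 3.45 ± 0.10 TPM. The list held genes that moved both ways, and its median was 0.03.

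Genes of cycling cells were set beside these. None of 21 S phase genes and none of 20 mitosis genes was called in limma, with median log2 fold changes of -0.06 and -0.03. The groups lay apart for 5 S phase genes, all lower, and for 4 mitosis genes, 1 lower and 3 higher, against the 19.3% lower and 11.0% higher of all genes tested. At an unadjusted p under 0.05, 3 S phase genes were lower, and 4 mitosis genes were lower and 1 higher. By voom on recovered reads 1 S phase gene was called lower, and 3 mitosis genes were called lower and 2 higher.

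Recovered reads ran from 15789131 to 20341696 per library, so that the called repair genes rested on 330 to 31889 reads per library on average. NEAT1 itself measured 13.4, 7.68 and 10.8 TPM with CsiRNA and 4.36, 2.96 and 2.73 TPM with NEAT1siRNA, 31.5% of the control mean (log2 fold change -1.41, limma adjusted p = 1.21e-07). The groups did not overlap, in the direction the labels give. Of 6 mesenchymal markers, VIM stood at 1046 ± 78.9 TPM with CsiRNA and FN1, CDH2 and CD44 were called lower with NEAT1siRNA. SPARC (log2 fold change 0.08) and ZEB1 (-0.02) were not called, and the SPARC groups lay apart on the higher side. The epithelial and hormone receptor genes ESR1, PGR, EPCAM, GATA3 and CDH1 were at 0 or at most 0.169 TPM in every library, as were PTPRC, CD3E, PECAM1 and VWF. KRT18 of the same epithelial list measured 1.04 to 2.07 TPM and CD68 of the immune list 23.2 to 29.2 TPM, and neither was called. A set of 4 short RNAs held 64.4% to 68.1% of the TPM of a library. With TPM rescaled without them, 5 repair genes were called lower (the 4 and FANCM) and XRCC4 higher, and among all genes 1174 were called lower and 918 higher, with a median log2 fold change of -0.02.

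**Figure D5:**
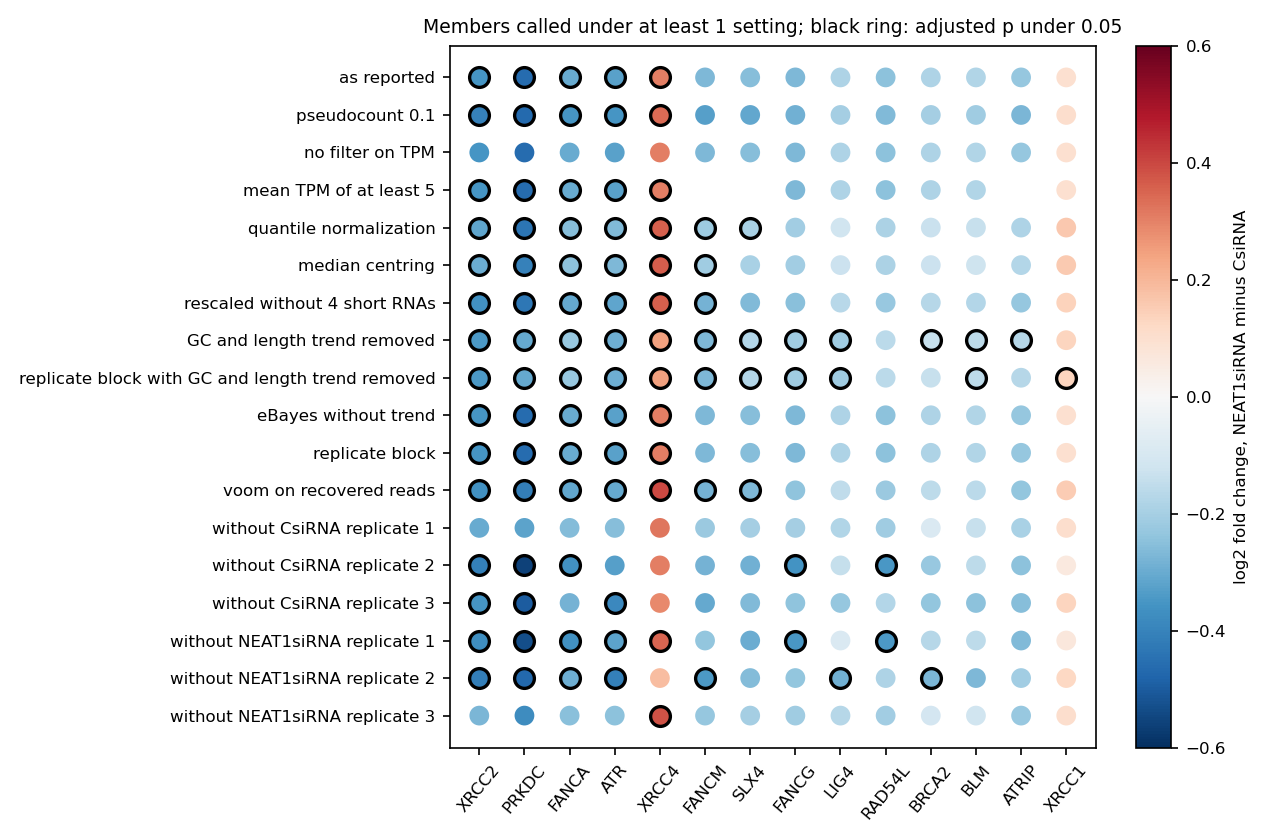
Log2 fold change (colour) of the 14 repair genes called under at least 1 of the settings tried (vertical axis), with a black ring where the adjusted p was under 0.05. No ring appears without CsiRNA replicate 1 or without a filter on TPM, and no colour of the 5 genes called as reported changes sign.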

How the data were processed

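BT-549 RNA-seq libraries (3 with CsiRNA, 3 with NEAT1siRNA) were grouped by their labels. The authors made stranded mRNA libraries and aligned the reads with STAR to GRCh38. The deposited table gives TPM per gene and library. The tool that made them is not given in the sources used here. A second deposited table gives the authors' mean normalized count per gene, a signal per gene that pools all 6 libraries, each scaled by its DESeq2 size factor. Its fold changes and p-values are the authors' own comparison and were not used.

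A pseudocount of 1 was added to TPM before taking log2, genes averaging under 1 TPM were left out, and limma 3.58.1 (R 4.3.3; a trended empirical Bayes fit) compared the groups, two-sided, with Benjamini-Hochberg adjustment over 10721 genes and a threshold of 0.05. A fold change on this scale understates that of low genes. The smallest p of an exact permutation test (two-sided) is 0.1 for 3 against 3, so none was run. The 44 repair genes, the lists of other genes, the gene pairs and the settings were chosen with earlier results of these data known. All 44 were named, with values in every library for those called and, in a pathway with none called, for the gene with the smallest p. Up to 3 called genes were named from each further list, and the results of some listed genes are not reported here. MCM4, FANCD2 and CDKN1A were given beside these after their values were seen, as were the neighbours and the kinase relatives.

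Depth was recovered by joining the tables: 99.8% of values came within 0.05 of a whole read where the mean normalized count was under 5, and 21.4% for those over 500, whose reads are approximate. Replicates differed by 5.39 to 17.9 times the counting noise (chi-square per degree of freedom), so none was a duplicate. Positions came from GENCODE and promoters from RefSeq. The fit and the recovery were tested on simulated data. The 18 alternatives are described with their effects in the closing section. Tables were made in Python 3.11.15 (pandas 2.3.3, numpy 2.4.6, scipy 1.17.1) and plots in matplotlib 3.10.9.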

Additional observations from a re-analysis of the deposited data

How the results depend on the processing

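Of 18 alternatives, none reversed the sign of a called repair gene. Counts are given as repair genes called lower and higher, then all genes and further repair genes (4 and 1, 1498 and 17 as reported). Further repair genes here means the further lists together, with the p53 targets included. Without a filter on TPM they were 0 and 0, 505 and 2, with 18531 genes tested. With the GC and length trend removed they were 11 and 1, 3468 and 49. An adjusted p under 0.01 gave 1 and 0, 719 and 9. Voom on recovered reads gave 6 and 1, 2465 and 31. Further repair genes called numbered 27 with quantile normalization, 28 with median centring and 26 when TPM were rescaled without 4 short RNAs. Leaving out 1 library at a time gave 0 to 7 repair genes lower, 0 to 1 higher, 759 to 2083 genes in all and 7 to 23 further repair genes, and the XRCC4 call was kept without NEAT1siRNA replicate 1 or 3 only. Correlations of deviations between libraries of the same replicate number were -0.03, 0.25 and -0.11, against -0.40 to 0.40 for different numbers. The GC-dependent deviations of each library enter these values, so they cannot tell whether replicate numbers pair the libraries. The replicate block gave 4 and 1, 1640 and 18, and the replicate block with the trend removed gave 9 and 2 (XRCC1 and XRCC4 higher), 3390 and 50. NEAT1 stayed lower throughout. Among values of the 44 genes, 26 calls were gained and 23 lost over all alternatives. The causes were not tested. RAD51D, with 96 recovered reads per library on average, had an SE of 0.10, and PRKDC, with 31889, one of 0.11. These SEs are drawn together by the empirical Bayes fit, which pools spread over genes, so they do not show that depth was without effect. The counting error in the library with the fewest reads was 11.0% for RAD51D and 0.67% for PRKDC.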

Other observations

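ATR and PRKDC belong, with ATM, to the family of PI3K-related kinases (PIKKs), large proteins whose folding needs the TTT complex (TELO2, TTI1 and TTI2) and the R2TP complex. The rest of the family was looked up after the values of ATR, PRKDC, TRRAP and TELO2 had been seen, so the counts are a description. All 6 family members measured (ATM, ATR, PRKDC, MTOR, SMG1 and TRRAP) had a negative log2 fold change, with a median of -0.34. Among all 10721 genes tested, 6507 had one. In limma 4 of the 6 were called lower, where 8.98% of all genes were. Their annotated transcripts are long, from 8158 bases for ATR to 16062 for SMG1, against a median of 3347 for the genes tested. Other genes of such length were not set beside them, so the values do not show a trait of this family. MTOR, the growth-controlling kinase, measured 22.7, 17.9 and 18.6 TPM with CsiRNA and 16.2, 15.3 and 14.0 TPM with NEAT1siRNA. Its groups did not overlap (log2 fold change -0.35, SE 0.10, limma adjusted p = 0.0198). SMG1, the kinase of nonsense-mediated decay, was not called (log2 fold change -0.23, limma adjusted p = 0.175), nor was ATM.

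Of the TTT complex, TTI1 went from 25.2 ± 1.87 to 20.1 ± 1.12 TPM and TELO2 from 3.32 ± 0.36 to 2.47 ± 0.29 TPM, and both were called lower, while TTI2 was not (log2 fold change -0.08). None of the 4 R2TP genes (RUVBL1, RUVBL2, PIH1D1 and RPAP3) was called as reported or by voom (RPAP3 was called in 1 of the other fits), with log2 fold changes from -0.20 to -0.03 and 1 of them lower at an unadjusted p under 0.05. MTOR, TRRAP and PRKDC were called in 15 of 18 fits (the reported fit and 17 alternatives), and ATR in 14. Without CsiRNA replicate 1, and likewise without NEAT1siRNA replicate 3 or without a filter on TPM, 0 of the 6 kinases and 0 of the 3 TTT genes were called in limma, while 4 and 2 were lower at an unadjusted p under 0.05. CsiRNA replicate 1 was the highest control for all 6 kinases.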
